A study of Mus musculus with 14 samples.

Results

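The mitochondrial carriers of the Slc25 family were followed in single mouse embryos made by somatic cell nuclear transfer (SCNT). The members were all genes whose symbol starts with Slc25a. There were 47 such genes among 20238 gene symbols, listed as 55 RefSeq entries among 25650. RNA of 14 single 2-cell embryos was sequenced, and levels are RPKM, a read count divided by the length of the transcript and by the total of the library. All embryos were of the hybrid strain B6D2F1 and were made by fusing a cumulus cell with an enucleated oocyte. They were activated with strontium in cytochalasin B and collected at 28 h. The labels count these 28 h from nuclear transfer and the methods from egg activation.

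The treatments were trichostatin A (TSA), which inhibits histone deacetylases, at 50 nM from 0 to 8 h, and vitamin C (VC) at 10 µg/ml in an early window from 0 to 8 h or a late window from 8 to 15 h. There were 3 control embryos with neither agent, 1 early VC embryo, 2 late VC embryos, 3 TSA-only embryos, 2 TSA+early VC embryos and 3 TSA+late VC embryos, where TSA was always given from 0 to 8 h. With a single early VC embryo, that treatment has no replicate check. A library was made from a part of the RNA of 1 embryo and amplified by PCR. Its RPKM values are shares of that part and do not give RNA per embryo. Depth ran from 3021540 to 13589389 counted reads per embryo. A floor of 3 reads over 1 kb amounted to between 0.221 and 0.993 RPKM. It covers counting error alone, because reads amplified from 1 embryo are not independent molecules.

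The 10 oocyte markers were at 1 RPKM or more in between 3 embryos (Ooep and H1foo) and all 14 (Bmp15 and Oosp1), and the 10 markers of the 2-cell stage in between 3 (Zscan4c, Zscan4f and Usp17la) and 13 (Tcstv1 and Zfp352). The summed level of the 12 cumulus cell markers was at most 21 RPKM, in TSA-only replicate 2, and Fshr, Hsd3b1, Inhba and Inha were at 0 in every embryo. Kitl was above 0 in 11 embryos and at 1 RPKM or more in 3, with 20.9 RPKM in TSA-only replicate 2. Has2 reached 1.82 RPKM in TSA+early VC replicate 2. Control replicate 2 stood apart, with the lowest summed oocyte markers at 99.9 RPKM and the lowest summed 2-cell markers at 6.39 RPKM. Where leaving it out changed a call, the value without it is given.

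Slc25 proteins sit in the inner mitochondrial membrane, with a few exceptions, and move metabolites, nucleotides, phosphate and cofactors between cytosol and matrix. Most exchange 1 substrate for another, as the adenine nucleotide carriers do when they export ATP for ADP. Before implantation an embryo keeps the mitochondria inherited from the oocyte, and the carriers are encoded by the nucleus, which in SCNT is that of the donor. The levels given here do not separate RNA stored in the oocyte from RNA made by the donor nucleus. A whole cumulus cell was fused with each oocyte, and what it brought in RNA and mitochondria was not measured.

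RefSeq promoter sequences (GRCm38.p6) were at hand for 36 of the 47 genes. The 250 bases before the start are shown for Slc25a3 and Slc25a16, at 1 RPKM or more in 14 and 13 embryos, and for Slc25a47, which was at 0 throughout. They let the composition of a promoter be seen beside the levels of its gene. Capitals mark CG dinucleotides, of which the windows hold 27, 18 and 6. They lie at chr10:91123968-91124217 (minus strand), chr10:62920383-62920632 (plus strand) and chr12:108850879-108851128 (plus strand).
Slc25a3: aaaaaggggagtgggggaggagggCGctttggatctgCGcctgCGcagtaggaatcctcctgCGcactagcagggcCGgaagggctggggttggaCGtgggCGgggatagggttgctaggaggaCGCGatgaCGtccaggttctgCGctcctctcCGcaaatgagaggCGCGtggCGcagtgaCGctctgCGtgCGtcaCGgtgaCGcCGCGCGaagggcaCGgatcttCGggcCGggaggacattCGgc
Slc25a16: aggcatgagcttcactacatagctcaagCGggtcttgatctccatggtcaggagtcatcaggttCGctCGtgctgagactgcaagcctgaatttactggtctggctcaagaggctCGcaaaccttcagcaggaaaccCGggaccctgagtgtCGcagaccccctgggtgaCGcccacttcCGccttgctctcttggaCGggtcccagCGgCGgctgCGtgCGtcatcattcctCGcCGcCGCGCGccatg
Slc25a47: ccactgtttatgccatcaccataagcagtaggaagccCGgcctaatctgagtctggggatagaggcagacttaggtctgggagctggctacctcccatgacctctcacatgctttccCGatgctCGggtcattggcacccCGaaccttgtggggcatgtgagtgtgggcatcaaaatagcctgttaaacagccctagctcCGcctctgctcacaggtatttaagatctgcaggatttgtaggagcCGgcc
The median CG count was 16 over 17 promoters of members at 1 RPKM or more in at least 7 embryos, 10 over 20 promoters of members so seen in 1 to 6 embryos, and 10 over 9 promoters of members never so seen. Over all 32851 promoters it was 6. The ranges of the 3 sets of members overlapped, from 4 to 43, from 2 to 35 and from 1 to 40. A GC box (GGGCGG, both strands) was held by 12 of 17, 14 of 20 and 6 of 9 of these promoters, and by 32.7% of all promoters. These counts describe letters in a window and were not tested.

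In the embryos, 33 of the 47 genes reached 1 RPKM in at least 1 embryo. Slc25a3 and Slc25a44 did so in all 14 and Slc25a16 in 13. Another 12 genes did so in 7 to 12 embryos and 18 in 1 to 6. The remaining 14 genes (29.8%, beside 44.7% of all genes) never reached 1 RPKM, and 4 of them, Slc25a41, Slc25a45, Slc25a47 and Slc25a54, were listed at 0 in every embryo. The other 10 were Slc25a1, the citrate carrier, Slc25a2, Slc25a18, Slc25a24, Slc25a27, Slc25a29, Slc25a34, Slc25a35, Slc25a37, the mitochondrial iron importer mitoferrin 1, and Slc25a40.

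**Figure D1:**
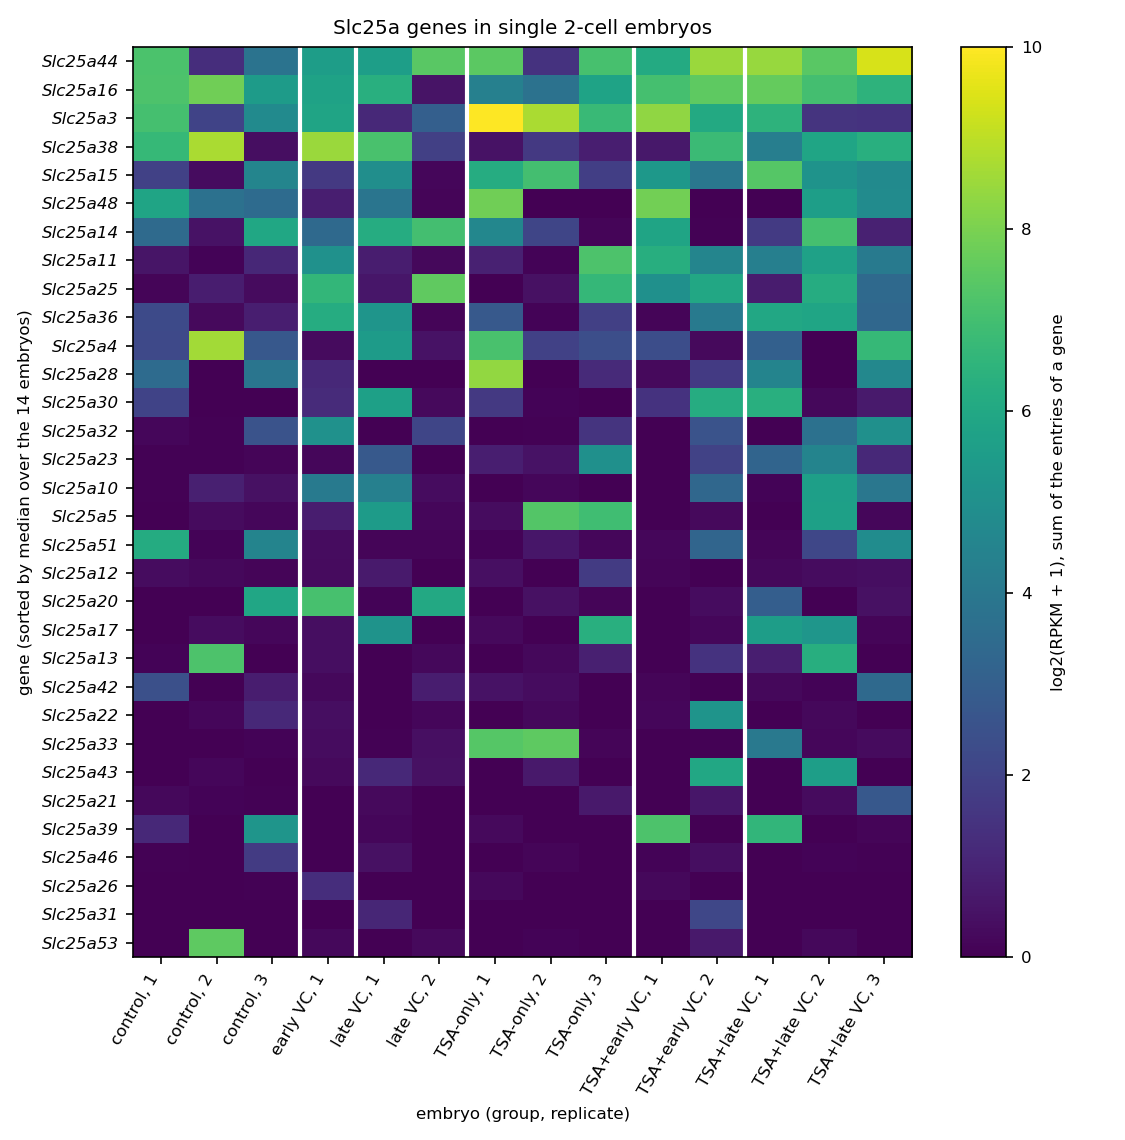
Level of 32 of the 33 Slc25a genes that reached 1 RPKM, as log2(RPKM + 1) of the summed entries of a gene (colour), in each of the 14 embryos (columns, white lines between groups). Rows run from the highest median, Slc25a44 at 138 RPKM, and most rows mix bright and dark cells within a group.

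Levels of a gene moved widely between embryos. Over the 14 embryos of all treatments, 15 of the 47 genes went from under 1 RPKM in 1 embryo to 100 RPKM or more in another. The share of all genes that did so was not counted. A level of 100 RPKM was reached in at least 1 embryo by 36.2% of members and 20.8% of all genes. For members at 1 RPKM or more in at least 7 embryos, the standard deviation of log2(RPKM + 1) over the 14 embryos had a median of 2.55 (15 genes), against 2.27 for all 4372 such genes. No single carrier led in every embryo, and 7 different genes held the highest member level in at least 1. On RPKM summed over the entries of a gene, Slc25a44 led in 4 embryos, Slc25a3 and Slc25a38 in 3 each, and Slc25a11, Slc25a14, Slc25a16 and Slc25a25 in 1 each. With Slc25a44 counted per base of both its entries, it led in 1 embryo only (TSA+late VC replicate 3), Slc25a16 in 3 and Slc25a14 in 2, and the others as before. The 3 highest members made up between 39.7% and 85.7% of an embryo's summed Slc25a level.

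The number of Slc25a entries at 1 RPKM or more ranged from 7 to 21 between embryos. Control replicates 1 to 3 had 16, 8 and 16 such entries, TSA-only replicates 12, 9 and 14, and TSA+late VC replicates 17, 21 and 18. late VC replicates had 18 and 7, TSA+early VC replicates 11 and 20, and the early VC embryo 17. TSA+late VC embryos were above all control and all TSA-only embryos in this count, and the same embryos had more entries of any kind at 1 RPKM or more (5489 to 5720, against 3819 to 5439 in controls and 3556 to 4249 in TSA-only embryos). The share of Slc25a entries detected was above that of all entries in 12 of 14 embryos.

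**Figure D2:**
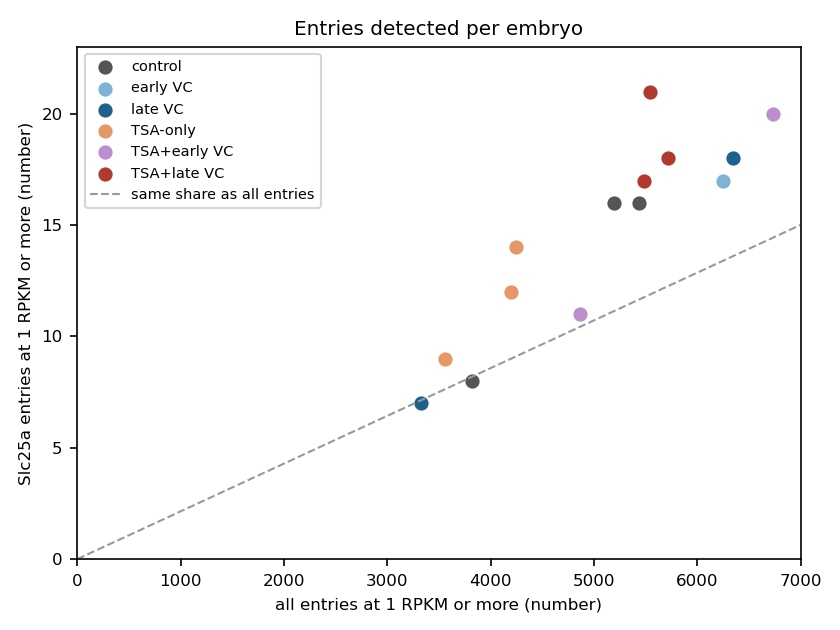
Number of Slc25a entries at 1 RPKM or more (vertical) against the number of all entries at 1 RPKM or more (horizontal), 1 point per embryo, coloured by group. The dashed line marks an equal share, and 12 of the 14 points lie above it.

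The summed Slc25a level was 711, 1390.3 and 375 RPKM in control replicates 1 to 3 and 2201, 924 and 791 RPKM in TSA-only replicates. TSA+late VC replicates had 1186, 1087 and 1151 RPKM, TSA+early VC replicates 1121 and 1061 RPKM, late VC replicates 624 and 569 RPKM, and the early VC embryo 979 RPKM. The 3 TSA+late VC embryos lay close together, at 1142 ± 50.2 RPKM (SD, n = 3), and inside the range of the controls, at 825 ± 517 RPKM (SD, n = 3). TSA-only embryos, at 1306 ± 779 RPKM (SD, n = 3), overlapped both. The sum depends on the scale: with median-ratio scaling the control mean became 1311 and the TSA+late VC mean 639, the opposite order. No test was made on this sum.

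By substrate, the carriers of glycine and branched-chain amino acids, Slc25a38 and Slc25a44, had the highest class median, at 208 RPKM summed over the class and at 161 RPKM with Slc25a44 per base of both entries. The carriers of cofactors followed at 136 RPKM, of which Slc25a16, involved in matrix coenzyme A, was the main member. Slc25a3, the phosphate and copper carrier, had a median of 61.3 RPKM. Carriers of aspartate and glutamate had a class median of 0.739 RPKM, the peroxisomal carrier Slc25a17 one of 0.168 RPKM and the acylcarnitine carrier Slc25a20 one of 0.176 RPKM. These low medians hid high single embryos: Slc25a20 was at 136 RPKM in the early VC embryo, 64.2 RPKM in late VC replicate 2 and 59.6 RPKM in control replicate 3, and at 6.97 RPKM or less in the 11 others.

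Slc25a44, a carrier of branched-chain amino acids, had the highest median of the family, at 138 RPKM summed over its 2 entries and 91.6 RPKM per base of both, beside 82.5 RPKM for Slc25a16. It lies on chromosome 3 at 88214420-88229061 (mm9, minus strand). The entry NM_178696, counted over 3580 bases, was at 133, 1.51 and 12.7 RPKM in control replicates 1 to 3, 178, 1.04 and 135 RPKM in TSA-only replicates, and 108, 56.7 and 216 RPKM in TSA+late VC replicates. It was at 46.6 and 173 RPKM with late VC, 68.1 and 138 RPKM with TSA+early VC and 44.6 RPKM with early VC. On this entry all groups of 2 or more embryos overlapped with the controls.

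The other entry of Slc25a44, NM_001145876, was counted over 366 bases only and had another pattern. It was at 244, 117 and 458 RPKM in TSA+late VC replicates 1 to 3, from 388, 334 and 2057 reads. It was at 8.56, 0 and 0.402 RPKM in controls, from 17, 0 and 2 reads, and at 0.904, 0.699 and 0.697 RPKM in TSA-only embryos. The TSA+early VC replicates were at 0 and 224 RPKM, the late VC replicates at 1.11 and 0.416 RPKM, and the early VC embryo at 1.92 RPKM. Of the 5 embryos that received both agents 4 were at 100 RPKM or more, and none of the 9 others. This grouping and level were chosen after the values were seen, and the share of all entries split this way was not counted. In these 4 embryos the ratio of the short to the long entry was 2.26, 2.07 and 2.12 with TSA+late VC and 1.62 with TSA+early VC, and in the other embryos it was at most 0.675, a value from TSA-only replicate 2 that rests on 2 reads.

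The sources used here do not say how reads shared by entries of a gene were divided, nor where the 366 bases lie. Because the short entry covers far fewer bases, the summed RPKM of the gene is weighted towards it. Per base of both entries together, Slc25a44 was at 121, 1.37 and 11.5 RPKM in controls and 121, 62.3 and 239 RPKM in TSA+late VC embryos, which overlap (two-sided exact permutation p = 0.3, where 0.1 is the smallest that 3 against 3 can give). On the summed RPKM the groups did not overlap, at 141, 1.51 and 13.1 RPKM against 352, 174 and 674 RPKM (exact permutation p = 0.1). The share of all genes without overlap was not counted. The other 7 genes with 2 entries held reads in 1 of them: in 6 genes the second was at 0 in all 14 embryos, and in Slc25a25 it held reads in 1 embryo, at 5.73 RPKM.

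**Figure D3:**
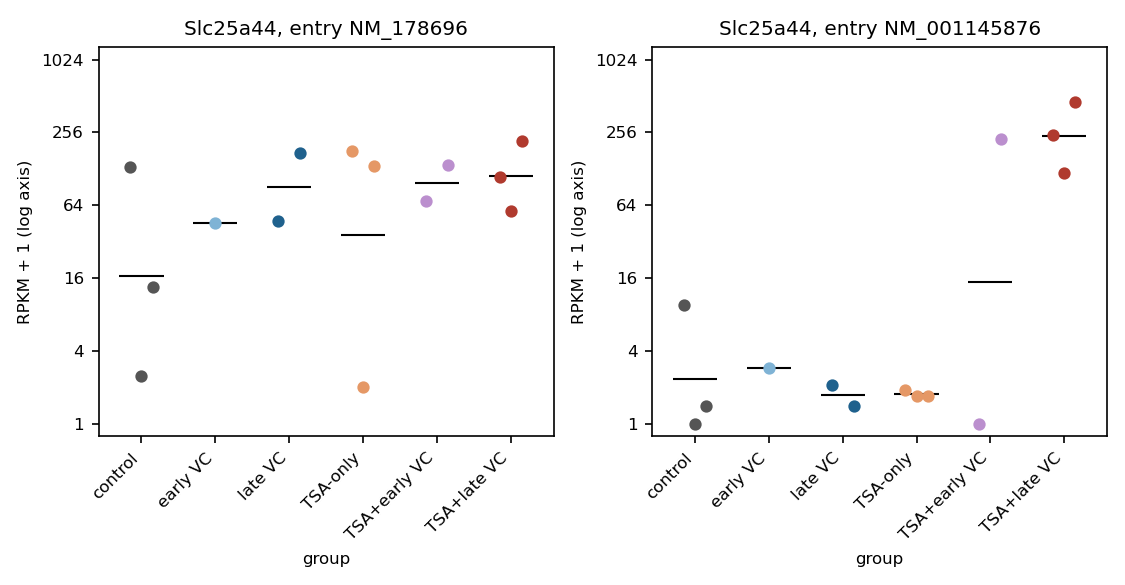
RPKM + 1 of both Slc25a44 entries on a log axis, 1 point per embryo, by group, with a bar at the mean of log2(RPKM + 1). The long entry (left) overlaps between groups, while the short entry (right) is at 117 RPKM or more in 4 embryos and at 8.56 RPKM or less in the 10 others.

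Slc25a3 supplies the matrix with phosphate for ATP synthesis and with copper. It lies on chromosome 10 at 90579319-90586804 (mm9, minus strand). It was at 132, 3.08 and 26.9 RPKM in control replicates 1 to 3, 998, 426 and 108 RPKM in TSA-only replicates, and 86.8, 1.87 and 1.78 RPKM in TSA+late VC replicates. With TSA+early VC it was at 326 and 66.1 RPKM, with late VC at 1.21 and 7.24 RPKM and with early VC at 56.5 RPKM. All TSA-only embryos were above all TSA+late VC embryos, and 1 control embryo lay above the lowest TSA-only embryo. For this gene and those described below, the share of all entries without overlap between groups was not counted. A lack of overlap is therefore not shown to be particular to the carriers.

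Slc25a16 was at 10 RPKM or more in 13 of the 14 embryos, more than any other member. It was at 147, 229 and 43.9 RPKM in controls, 199.6, 127 and 87.4 RPKM with TSA+late VC, 131 and 185 RPKM with TSA+early VC, and 19.6, 12.7 and 54.3 RPKM in TSA-only embryos. It was at 54.0 RPKM with early VC, and the late VC replicates were at 77.5 and 0.436 RPKM. The TSA-only embryos lay below all TSA+late VC embryos, and the highest of them was above the lowest control.

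Slc25a38, which brings glycine into the matrix for haem synthesis, was at 104, 421 and 0.279 RPKM in controls. It was at 0.419, 2.19 and 0.807 RPKM in TSA-only embryos and at 18.6, 57.1 and 78.3 RPKM with TSA+late VC, with no overlap between these groups. With TSA+early VC it was at 0.582 and 112 RPKM, with late VC at 137 and 2.69 RPKM and with early VC at 361 RPKM. Controls ranged over the levels of both TSA groups.

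Slc25a15, the ornithine carrier of the urea cycle, was at 2.78, 0.253 and 22.7 RPKM in controls and 73.0, 129 and 2.63 RPKM in TSA-only embryos. It was at 162, 34.2 and 26.4 RPKM with TSA+late VC, 39.7 and 14.5 RPKM with TSA+early VC, 29.8 and 0.132 RPKM with late VC and 2.17 RPKM with early VC. All TSA+late VC embryos were above all controls, by a small margin between 22.7 and 26.4 RPKM.

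**Figure D4:**
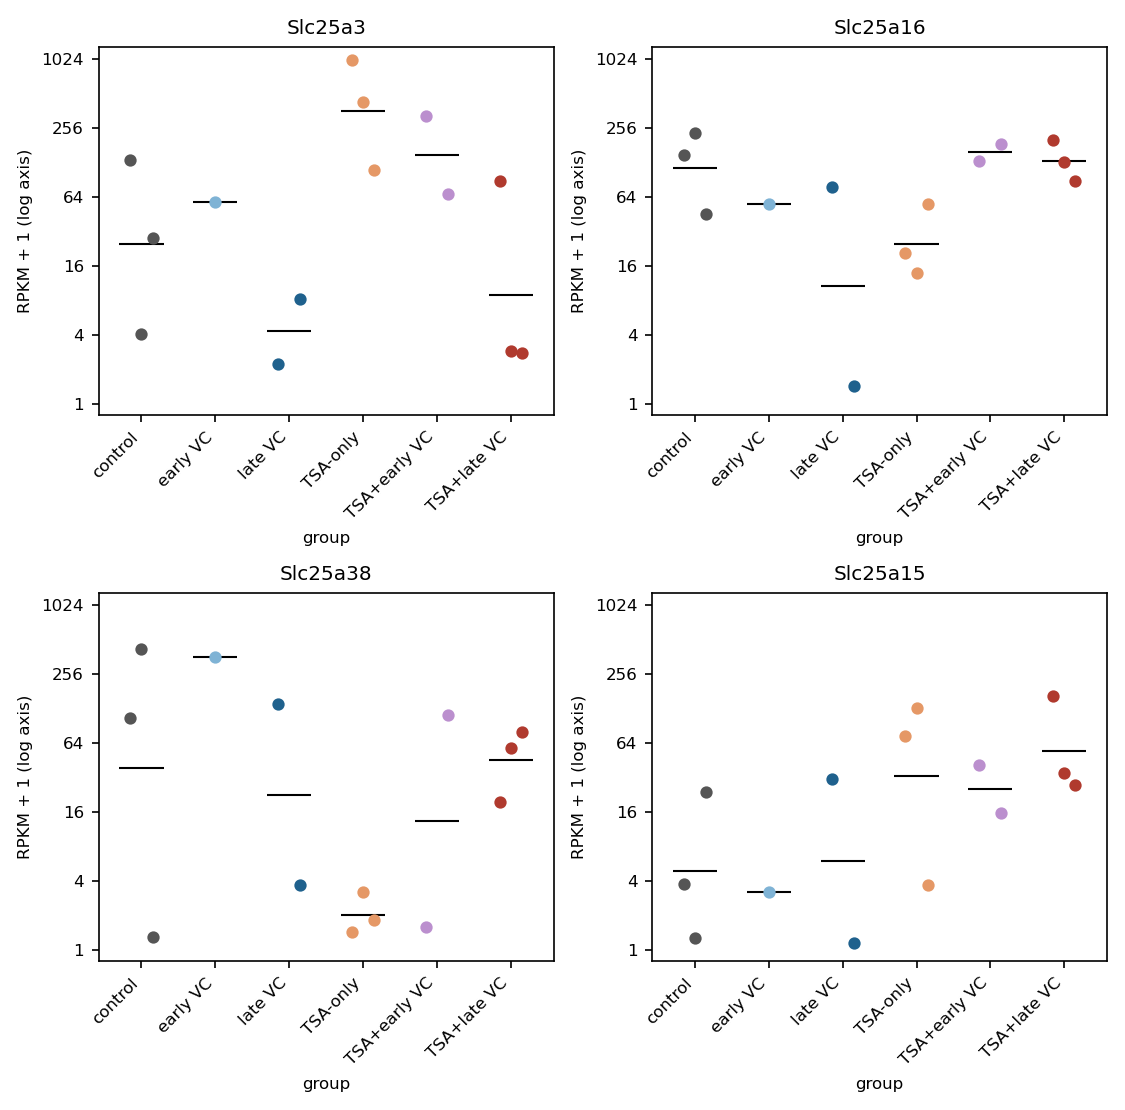
RPKM + 1 of Slc25a3, Slc25a16, Slc25a38 and Slc25a15 on a log axis, 1 point per embryo, by group, with a bar at the mean of log2(RPKM + 1). Slc25a3 and Slc25a38 do not overlap between the TSA-only and the TSA+late VC embryos, with opposite directions. The share of all entries without such overlap was not counted.

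Among carriers of nucleotides, Slc25a4 and Slc25a5 exchange ADP for ATP. Slc25a4 was at 3.68, 393 and 5.80 RPKM in controls, 140.1, 2.78 and 4.24 RPKM in TSA-only embryos, and 7.30, 0 and 103 RPKM with TSA+late VC. In the other treatments it was at 43.3 and 0.414 RPKM with late VC, 4.17 and 0.208 RPKM with TSA+early VC, and 0.213 RPKM with early VC. Slc25a4 thus overlapped between these groups. Slc25a5 reached 1 RPKM in 4 embryos, where it was at 44.3 RPKM or more: late VC replicate 1, TSA-only replicates 2 and 3 and TSA+late VC replicate 2. Slc25a31, the adenine nucleotide carrier of germ cells, reached at most 3.40 RPKM.

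Slc25a36, a carrier of pyrimidine nucleotides, was at 3.73, 0.190 and 0.793 RPKM in controls and 62.9, 57.7 and 9.18 RPKM with TSA+late VC. It was at 5.84, 0.0836 and 2.70 RPKM in TSA-only embryos, 36.3 and 0.0994 RPKM with late VC, 0.1001 and 15.9 RPKM with TSA+early VC, and 72.5 RPKM with early VC. Its TSA+late VC embryos lay above all control and TSA-only embryos, and the share of all entries that did so was not counted. Of all entries tested, 64.7% had a higher mean with TSA+late VC than in controls, and 72.5% than in TSA-only embryos. The ATP-Mg/phosphate carriers, which adjust the matrix pool of adenine nucleotides, include Slc25a25 and Slc25a23. Slc25a25 was at 0.104, 0.736 and 0.227 RPKM in controls, 0, 0.359 and 99.6 RPKM in TSA-only embryos, and 0.711, 72.1 and 9.70 RPKM with TSA+late VC. It was at 98.7 RPKM with early VC, 0.513 and 186 RPKM with late VC and 31.2 and 63.2 RPKM with TSA+early VC. It was under 1 RPKM in all controls. It was above 9 RPKM, a level chosen after the values were seen, in 6 of the 8 embryos with VC. Of the embryos without VC, 1 was above it, TSA-only replicate 3. Slc25a23 was under 0.1 RPKM in all 3 controls and at 8.35, 21.9 and 1.24 RPKM with TSA+late VC. Its TSA-only embryos were at 0.788, 0.419 and 31.5 RPKM, its late VC embryos at 5.88 and 0 RPKM, its TSA+early VC embryos at 0 and 2.88 RPKM and its early VC embryo at 0.140 RPKM. Exons of Slc25a23 share 168 bases, and those of Slc25a25 379 bases, with genes of the opposite strand, and reads of these stretches cannot be assigned without strand.

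Among carriers of organic acids and related members, Slc25a11 exchanges oxoglutarate for malate. It was at 0.495, 0.0783 and 1.15 RPKM in controls, 19.1, 51.8 and 16.6 RPKM with TSA+late VC and 0.889, 0.0688 and 146 RPKM in TSA-only embryos. It was at 76.4 and 22.1 RPKM with TSA+early VC, 0.763 and 0.164 RPKM with late VC, and 31.9 RPKM with early VC. All 5 embryos with both agents were above all controls, a grouping chosen after the values were seen. The early VC embryo and TSA-only replicate 3 were above all controls too. The share of all entries split this way was not counted. Of the exon bases of Slc25a11, 189 are shared with Rnf167 on the opposite strand. Slc25a14, a member close to the uncoupling proteins, was at 9.96, 0.414 and 60.9 RPKM in controls, 23.5, 3.28 and 0.0968 RPKM in TSA-only embryos, and 2.23, 131 and 0.880 RPKM with TSA+late VC. It was at 71.5 and 128 RPKM with late VC, 56.7 and 0.0434 RPKM with TSA+early VC and 9.75 RPKM with early VC, so that both late VC embryos were above all controls. Slc25a48 was at 56.7, 12.4 and 10.2 RPKM in controls, 224, 0 and 0 RPKM in TSA-only embryos, and 0, 47.5 and 27.1 RPKM with TSA+late VC. It was at 13.9 and 0.102 RPKM with late VC, 236 and 0 RPKM with TSA+early VC and 0.784 RPKM with early VC. Slc25a48 overlapped between the groups of 3.

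The question of whether TSA, VC or their sequence moved the carriers was put to limma on log2(RPKM + 1), over all entries at 1 RPKM or more in every embryo of either group. A difference is given on that log2 scale, which understates the change of low genes, and p-values were adjusted over all entries tested. No Slc25a entry passed an adjusted p of 0.05 with limma in any of the 6 comparisons. With limma-voom on the recovered reads, 1 entry passed in each of the comparisons of TSA+late VC with control (beside 5.65% of all entries) and TSA-only embryos (beside 9.65%), and 0 in the other 4. In the groups of 3, embryos with the same replicate number shared a pool of libraries and a sequencing lane, so a fit with the pool as a block is given where it changed a call.

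Between TSA+late VC and control embryos, 0 of 11 tested Slc25a entries passed, beside 0.0293% of all 3416 entries (1 entry). At an unadjusted p under 0.05, 4 Slc25a entries were higher and 0 lower, and 14.7% of all entries were higher at that level. Of the 11, 6 were tested only because they were at 1 RPKM or more in all TSA+late VC embryos, so a higher level there was in part set by the filter, and the 4 higher entries were all among these 6. The Slc25a44 entry NM_001145876 differed by 6.64 ± 1.54 (SE; limma adjusted p = 0.110), Slc25a23 by 2.88 ± 0.92 (limma adjusted p = 0.110), Slc25a11 by 4.13 ± 1.36 (limma adjusted p = 0.111) and Slc25a36 by 3.96 ± 1.58 (limma adjusted p = 0.173). The difference of the short Slc25a44 entry was 4.68, 6.89 and 8.35 within the 3 pools of libraries, each with 1 embryo of either group. With the pool as a block it passed (limma adjusted p = 0.0334), 1 of 11 beside 0.585% of all entries. Without control replicate 2 it passed too (adjusted p = 0.0451, a difference of 6.02), 1 of 16 beside 2.37%, and with limma-voom on the recovered reads its adjusted p was 0.00655 with a difference of 8.01. With a filter that took no account of the groups its limma adjusted p was 0.140, and 0 of 17 Slc25a entries passed. With a pseudocount of 0.1, 2 of 11 passed, beside 3.45% of all entries, and with a minimum of 5 RPKM 2 of 8, beside 8.5%. Slc25a16, with 0.19 ± 0.87, and Slc25a38, with 0.23 ± 1.72, had the smallest differences of the tested members. The median over the 11 entries was 2.74, beside 0.78 for all entries tested.

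Between TSA-only and control embryos, 0 of 6 tested Slc25a entries passed, beside 0.119% of all 2529 entries. At an unadjusted p under 0.05, only Slc25a3 was higher, by 3.86 ± 1.33 (limma adjusted p = 0.144), and 5.46% of all entries were higher at that level. The difference of Slc25a3 was 2.90, 6.71 and 1.96 within the pools, and the exact permutation p was 0.2. Without control replicate 2, 1 of 11 Slc25a entries passed, beside 8.85% of all entries: Slc25a51, a carrier of NAD, with a difference of -5.05 (limma adjusted p = 0.0361). It was then tested only because both remaining controls were at 1 RPKM or more, so its direction was set by the filter. It was at 70.9, 0.0657 and 21.8 RPKM in control replicates 1 to 3 and at 0.0746, 0.519 and 0.115 RPKM in TSA-only embryos, which overlap through control replicate 2. The 6 entries had a median difference of 0.21, beside -0.38 for all entries.

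Between TSA+late VC and TSA-only embryos, 0 of 10 tested Slc25a entries passed, beside 0% of all 3243 entries. At an unadjusted p under 0.05, 2 Slc25a entries were higher and 1 lower, where 16.4% of all entries were higher and 2.22% lower. Of the 10, 5 were tested only because they were at 1 RPKM or more in all TSA+late VC embryos, and both higher entries were among them, so that their direction was in part set by the filter. Slc25a3 was at 1 RPKM or more in every embryo of both groups. Slc25a44 NM_001145876 differed by 7.07 ± 1.63 (limma adjusted p = 0.0638), Slc25a38 by 4.48 ± 1.57 (limma adjusted p = 0.122) and Slc25a3 by -5.34 ± 1.53 (limma adjusted p = 0.0711). Within the pools these differences were 7.01, 6.12 and 8.08 for the short Slc25a44 entry, 3.79, 4.19 and 5.46 for Slc25a38, and -3.51, -7.22 and -5.29 for Slc25a3. Each had an exact permutation p of 0.1, the smallest possible. With the pool as a block the short Slc25a44 entry and Slc25a3 passed (limma adjusted p = 0.0353 for each), 2 of 10 beside 6.04% of all entries. With limma-voom the short Slc25a44 entry passed (adjusted p = 0.00109), and without TSA+late VC replicate 2 it passed with limma (adjusted p = 0.0375), 1 of 11 beside 8.3%. Without TSA+late VC replicate 1, 2 of 15 passed, beside 6.33%: Slc25a3, and the dicarboxylate carrier Slc25a10 with a difference of 4.73 (limma adjusted p = 0.0394 for each), which was tested only through the 2 remaining TSA+late VC embryos. With a filter that took no account of the groups 0 of 18 passed, and the limma adjusted p was 0.308 for the short Slc25a44 entry and 0.570 for Slc25a3. With a pseudocount of 0.1, 1 of 10 passed, beside 6.01% of all entries, and with a minimum of 5 RPKM 3 of 8, beside 10.2%. The median over the 10 entries was 1.79, beside 1.18 for all entries. This comparison and the one before share the TSA-only embryos, so a high Slc25a3 level in these 3 embryos enters both.

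**Figure D5:**
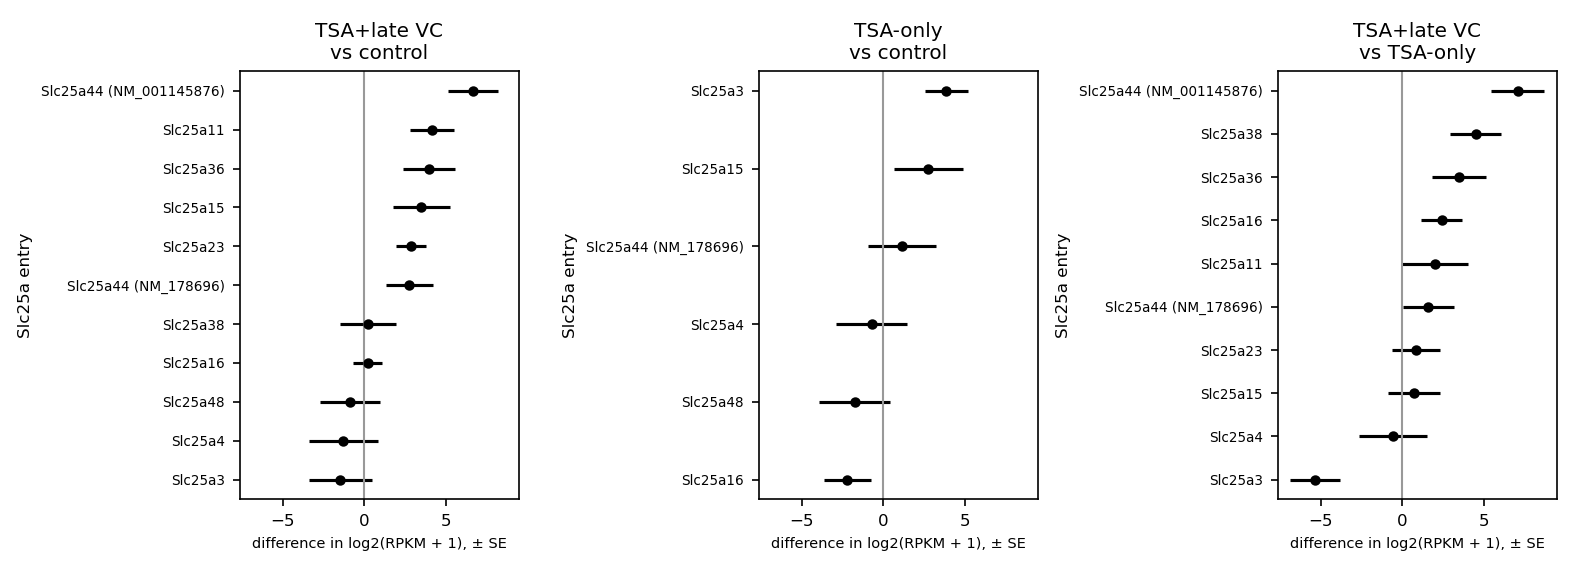
Differences in log2(RPKM + 1) with their SE for each tested Slc25a entry in the 3 comparisons of 3 against 3 embryos; right of the grey line at 0 the group named first is higher. The short Slc25a44 entry lies farthest right in both comparisons of TSA+late VC, at 6.64 and 7.07, and Slc25a3 farthest left against TSA-only, at -5.34.

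Between the 2 late VC and the 3 control embryos, 0 of 7 tested Slc25a entries passed, beside 0% of all 3171 entries, and 0 were under an unadjusted p of 0.05. The smallest adjusted p was 0.410, for Slc25a16, which differed by -3.44 ± 1.87 (limma). late VC replicate 2 had the fewest entries detected, 3322 in all, and 7 of the Slc25a family. Without it, 6 of 18 Slc25a entries passed on the strength of 1 embryo, beside 21.1% of all 6506 entries (Slc25a5, Slc25a10, Slc25a17, Slc25a23, Slc25a31 and Slc25a43, all higher). Without replicate 1, 1 of 10 passed, beside 11.7% of all 3902 entries: Slc25a25, with a difference of 7.13 (limma adjusted p = 0.0273). These 7 entries were tested only through the 1 remaining late VC embryo.

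Over all 14 embryos, TSA and VC were fitted together, with 8 embryos with and 6 without each agent. For TSA, 0 of 17 tested Slc25a entries passed, beside 0.0377% of all 5312 entries. At an unadjusted p under 0.05, Slc25a15, by 2.92 ± 1.25 (limma adjusted p = 0.803), and Slc25a3, by 2.51 ± 1.15 (limma adjusted p = 0.866), were higher, where 2.99% of all entries were. For VC, 0 of 17 passed, beside 0.0377% of all entries. Slc25a25 NM_001164358 was higher by 3.06 ± 1.41 (limma adjusted p = 0.471) and Slc25a44 NM_001145876 by 2.95 ± 1.42 (limma adjusted p = 0.485), where 8.64% of all entries were higher at an unadjusted p under 0.05. Slc25a3 was lower, by -2.64 ± 1.15 (limma adjusted p = 0.437), where 1.15% of all entries were lower.

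Whether late VC acted differently with and without TSA was tested as an interaction in 11 embryos. Of 12 tested Slc25a entries 0 passed, beside 0% of all 4181 entries. The short Slc25a44 entry had a difference of differences of 7.53 ± 2.74 (limma adjusted p = 0.339) and Slc25a16 one of 5.83 ± 2.23 (limma adjusted p = 0.358). Entries were tested if they were at 1 RPKM or more in all embryos of any group fitted. The short Slc25a44 entry met this only through the TSA+late VC embryos, so its direction was in part set by the filter.

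The 30 other genes of mitochondrial transport that were listed were the carriers under other symbols, the import machinery for carriers, the pores of the outer membrane, the pyruvate carrier, the calcium uniporter and the sideroflexins. None of them passed in any of the 6 comparisons, in which between 4 and 11 of them were tested. Between TSA+late VC and control embryos, 3 of the 9 tested were higher at an unadjusted p under 0.05 and 0 lower, beside 14.7% of all entries higher. These were Tomm20 and Tomm40, parts of the outer membrane import complex, and Smdt1 of the calcium uniporter. Tomm20 differed by 4.50 ± 1.33 (limma adjusted p = 0.110), Tomm40 by 4.71 ± 1.51 (limma adjusted p = 0.111) and Smdt1 by 5.53 ± 1.70 (limma adjusted p = 0.110). All 3 were tested only through the TSA+late VC embryos. Against TSA-only embryos, 1 of 10 was higher at that level, beside 16.4% of all entries. It was Tomm40, by 4.34 ± 1.55 (limma adjusted p = 0.127), again tested only through the TSA+late VC embryos. Between late VC and control embryos 3 of 7 were higher at that level (Tomm20, Tomm22 and Tomm70a), all tested only through the late VC embryos, beside 9.62% of all entries. Between TSA-only and control embryos 0 of 4 were higher, beside 5.46% of all entries. For VC over all embryos Tomm20 and Tomm40 were higher among 11 tested, beside 8.64% of all entries, and for TSA 0 of 11, beside 2.99%. Vdac1, the main pore of the outer membrane, was at 1 RPKM or more in all 14 embryos and Mcu in 13, while Ucp1 and Ucp3 were at 0 in every embryo.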

How the data were processed

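RNA of 14 single 2-cell SCNT embryos was sequenced with 1 library each, as single-end reads of 50 bp. The authors removed adapters, aligned the trimmed reads to mm9 with TopHat, counted them per transcript over its exons, and deposited these counts as RPKM. Groups come from GEO's labels (TSA-only is TSA(0-8 h), early VC is VC(0-8 h) and late VC is VC(8-15 h)), and the pool of libraries from the library identifier and lane in the file headers. The labels do not say which embryos share a culture or a day, so p-values measure the spread between single embryos. The paper states that nuclear transfer of the TSA+late VC embryos was done in independent experiments. Whether these match the pools is not stated, so pool and experiment cannot be told apart.

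Of the 25650 entries 25246 were matched to a symbol by RefSeq accession. Reads were recovered from the steps of 1 read between RPKM values: 14531 of the 14532 entries seen in 2 embryos or more came out whole (99.9931%, relative tolerance 1e-08). Positions are those of mm9, other than for promoters.

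Entries at 1 RPKM or more in all embryos of either group, or in at least 6 of 14 for TSA and VC fitted together, were tested with limma 3.58.1 (R 4.3.3; lmFit and eBayes with a trend) on log2(RPKM+1), with Benjamini-Hochberg adjustment at 0.05. The comparison of 2 groups follows the authors, who tested counts with edgeR after a filter at 1 CPM in all replicates of either group. The filter at 1 RPKM, which scales with length, and that at 6 of 14 embryos were set here. At a false discovery rate under 0.05 the authors called far more transcripts in the same comparisons of TSA+late VC, TSA-only and control embryos. The cause of this gap was not tested. Controls, TSA-only and TSA+late VC embryos of the same replicate number shared a pool and lane, which pairs them for sequencing, though their deviations from the group means were not correlated (from -0.048 to 0.031). The fit was also run on simulated data with planted changes. The share recovered is not given here, so an entry that did not pass is not shown to be unchanged. Two-sided exact permutation tests were run on single genes. The interaction was added after the data were seen. The named genes were the 12 with the highest median, up to 3 entries per comparison and direction with the smallest unadjusted p under 0.05, and genes with a second entry at 1 RPKM or more in 3 embryos. 1 named gene and 1 gene of the transport lists are not reported here. Other members described were chosen after their values were seen. The members and lists were chosen with earlier results of these data known. Other steps ran in Python 3.11.15 (matplotlib 3.10.9, scipy 1.17.1, pandas 2.3.3, numpy 2.4.6).

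Alternatives were a pseudocount of 0.1, no filter, a minimum of 5 RPKM, a filter blind to the groups, quantile normalization, the replicate number or pool as a block, entries summed per gene, 1 fit of all embryos and leaving out each embryo. Added after the data were seen were limma-voom on recovered reads, a filter at 1 CPM and Slc25a44 per base of both entries.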

Additional observations from a re-analysis of the deposited data

Results flagged for a closer look

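The summed Slc25a level of TSA-only replicate 1, at 2201 RPKM, stood far above the other 7 embryos that received TSA, of which the next was at 1186 RPKM. Its gap to the next embryo was 0.720 of the range, against a critical value of 0.526. Chance alone takes a sample past that critical value in about 1 of 20 groups. There were 8 such checks, of the highest and the lowest embryo with and without each agent. Among the 6 embryos without VC the same embryo was not far enough apart (a gap of 0.444 of the range, against a critical value of 0.625). Slc25a3, at 998 RPKM, made up 45.4% of that sum. This library was also the shallowest, with 3021540 reads counted, and the part of depth in the sum was not tested.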

How the results depend on the processing

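No Slc25a entry passed an adjusted p of 0.05 in any comparison as reported, and the direction of no named entry reversed under the alternatives run. Between TSA+late VC and control embryos, 2 entries passed with a pseudocount of 0.1 (118 of all 3416 entries), 2 with a minimum of 5 RPKM (211 of 2482) and 1 with limma-voom (193 of 3415), where 1 of all 3416 did as reported, and between 0 and 1 when 1 embryo was left out (1 without control replicate 2). Between TSA+late VC and TSA-only embryos these counts were 1, 3 and 1 (195 of 3243, 241 of 2354 and 313 of 3242 of all entries), and between 0 and 2 (2 without TSA+late VC replicate 1 and 1 without its replicate 2). Between TSA-only and control embryos the count was between 0 and 1, with 1 without control replicate 2. Between late VC and control embryos it was between 0 and 6, with 1 without late VC replicate 1 and 6 without replicate 2, where the lone sample is assumed to vary like the controls. The minimum of 5 RPKM tests fewer entries, and the cause of the other changes was not tested. No count moved for TSA or VC over all 14 embryos. Of the named entries' values under alternatives, 16 passed the threshold where the reported value did not, and 203 stayed on the same side. A filter at 1 CPM left every count at 0.

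The fit with the replicate number, and so the pool, as a block (replicate block) called 1 Slc25a entry between TSA+late VC and control embryos (Slc25a44 NM_001145876, adjusted p = 0.0334) and 2 between TSA+late VC and TSA-only embryos (this entry and Slc25a3, adjusted p = 0.0353 for each). These were 1 of 11 and 2 of 10, where 20 of 3416 and 196 of 3243 of all entries passed. The block changed no other call of a Slc25a entry.

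The mean summed Slc25a level moved by over 1 SD of the group's embryos (for the single early VC embryo, of all 14 embryos, 441 RPKM) in these cases. With median-ratio scaling it was 512 with early VC, 1173 with late VC, 680.2 with TSA+early VC and 639 with TSA+late VC. Without Slc25a44 it was 486 RPKM with late VC, 876 RPKM with TSA+early VC and 742 RPKM with TSA+late VC. With Slc25a44 per base of both entries it was 980.2 RPKM with TSA+early VC and 882 RPKM with TSA+late VC.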
